A study of Mus musculus with 12 samples.

Results

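Mouse muscle stem cells sorted as GFP-negative and given SIX2 were compared with cells sorted as GFP-positive and given an empty plasmid, to ask how closely PAX3-negative cells with added SIX2 resemble PAX3-positive cells without it. The members were the 3 libraries labelled GFP-negative SIX2 and the 3 labelled GFP-positive control, chosen by their labels, 6 of 12 libraries in all. Of 23586 genes in the table, 13931 had at least 10 normalized counts in at least 3 of these 6 libraries and were tested. All cells carried the Pax3nLacZ-IRES-GFP genotype, in which GFP marks cells that use the Pax3 locus, and all were grown in 20% FCS (fetal calf serum) with 4 ng/mL bFGF. GFP-negative SIX2 cells received 2 µg of pCR3-Six2, a plasmid that holds the mouse Six2 cDNA. GFP-positive control cells received the same mass of empty pCR3. The other libraries, used as a reference frame, were 3 from GFP-positive cells with pCR3-Six2 and 3 from GFP-negative cells with empty pCR3. Both compared groups thus differed in the sorted population and in the plasmid. The labels give no age, sex or muscle of origin. Nor do they say that replicate libraries stem from different animals or cultures, and the p-values therefore reflect the spread between libraries alone, which may be technical. Each RNA sample came from at least 50000 cells, and libraries were made by the full-length SMART-Seq2 protocol.

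Muscle stem cells lie beneath the basal lamina of the myofibre and, once activated, proliferate as myoblasts before they leave the cell cycle, express myogenin and fuse. PAX3 and PAX7 are paired-box transcription factors of the stem cell and progenitor state, and MYF5, MYOD1 and myogenin are the basic helix-loop-helix factors that commit and differentiate the cells. SIX2 belongs to a family of homeobox factors that bind, with EYA cofactors, to the regulatory regions of myogenic genes. In culture, differentiation genes rise as cell cycle genes fall, so bulk RNA carries both programmes at once.

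Neither the added gene nor the sorted gene checked the labels. Six2 (GRCm38 chromosome 17, 85684277 to 85688274, minus strand) had 22.8, 23.7 and 19.2 normalized counts in GFP-negative SIX2 libraries, against 5.35, 13.3 and 3.37 in GFP-positive control libraries, from 4 to 36 reads a library. Six2 was admitted to the test only through the GFP-negative SIX2 group, where it is high. The groups did not overlap, but the log2 difference of 1.64 with an SE of 0.68 (limma-trend adjusted p = 0.083) missed the threshold of 0.05. Over the other settings tried the adjusted p ran from 0.048 to 0.23, and it passed with only the 6 compared libraries in the fit and without GFP-positive control library 2, each at 0.048. GFP-positive SIX2 libraries had 28.6, 23.4 and 6.51 normalized counts of Six2 and GFP-negative control libraries 4.28, 15.9 and 24.4, so the highest control library lay above all 3 GFP-negative SIX2 libraries. Groups are therefore called by their labels throughout. Pax3 (chromosome 1, 78101267 to 78197134, minus strand) had 19.3, 16.5 and 13.8 normalized counts in GFP-negative SIX2 libraries and 94.1, 62.5 and 59.9 in GFP-positive control libraries, a log2 difference of −2.04 with an SE of 0.41 (limma-trend adjusted p = 0.0018). GFP-negative control libraries averaged 71.4 and GFP-positive SIX2 libraries 10.4, so that its level followed the plasmid label and not the GFP label. Six4, another member of the same family, had 772, 769 and 893 normalized counts in GFP-negative SIX2 libraries and 542, 623 and 886 in GFP-positive control libraries, and these overlapped (log2 difference 0.27, SE 0.17, limma-trend adjusted p = 0.24).

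The 2 groups differed across a large part of the transcriptome. A gene is called here where its limma-trend adjusted p was under 0.05. Of the genes tested, 4457 were called (32.0%), 2259 higher (16.2%) and 2198 lower (15.8%) in GFP-negative SIX2 libraries. A gene that reached 10 normalized counts often enough only in the group in which it is high had to differ to be tested, and such genes are named where they are described. The larger differences lay mostly on the higher side, with 816 genes over 2-fold higher (5.86%) and 274 over 2-fold lower (1.97%). In the comparisons that share the GFP-negative SIX2 libraries, 4098 genes were called against GFP-negative control libraries (29.4%), with 14.3% of genes higher and 15.1% lower, and 28 against GFP-positive SIX2 libraries (0.201%), with 0.187% higher and 0.0144% lower, a balance that turned round under DESeq2 and without GFP-negative SIX2 library 1. Between GFP-negative control and GFP-positive control libraries 518 genes were called (3.72%), a count that ran between 72 and 843 as single libraries were left out, lowest without GFP-negative control library 1. Depths of the compared libraries overlapped in range, at 34048869 to 40182810 reads in GFP-negative SIX2 libraries and 31295165 to 47299937 in GFP-positive control libraries, while GFP-positive SIX2 libraries held 12632428 to 15492340 reads and GFP-negative control libraries 12438885 to 33151990. The part of these lower depths in the counts of calls was not tested.

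The distance between a pair of libraries was taken as the root mean square (RMS) of their log2 differences over the genes tested. GFP-negative SIX2 libraries lay farther from GFP-positive control libraries than from those of the other groups. The 9 pairs of a GFP-negative SIX2 and a GFP-positive control library differed by 0.802 ± 0.0555 (SD over pairs) on the log2 scale, with a range of 0.717 to 0.899. Pairs with GFP-negative control libraries differed by 0.750 (0.694 to 0.806), which overlaps that range, and pairs with GFP-positive SIX2 libraries by 0.629 (0.561 to 0.684), which does not. Each of the 3 GFP-negative SIX2 libraries had its largest mean distance to the GFP-positive control group, at 0.772, 0.798 and 0.836, and its smallest to the GFP-positive SIX2 group, at 0.609, 0.616 and 0.662. Libraries of the same group differed by 0.523 among GFP-negative SIX2, by 0.517 among GFP-negative control and by 0.593 among GFP-positive control libraries. GFP-positive SIX2 libraries differed among themselves by 0.657, more than their 0.629 from GFP-negative SIX2 libraries. For comparison, GFP-negative control and GFP-positive control libraries differed by 0.657 (0.517 to 0.815). Pairs that share a library are not independent, so these distances are given without a test.

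**Figure D1:**
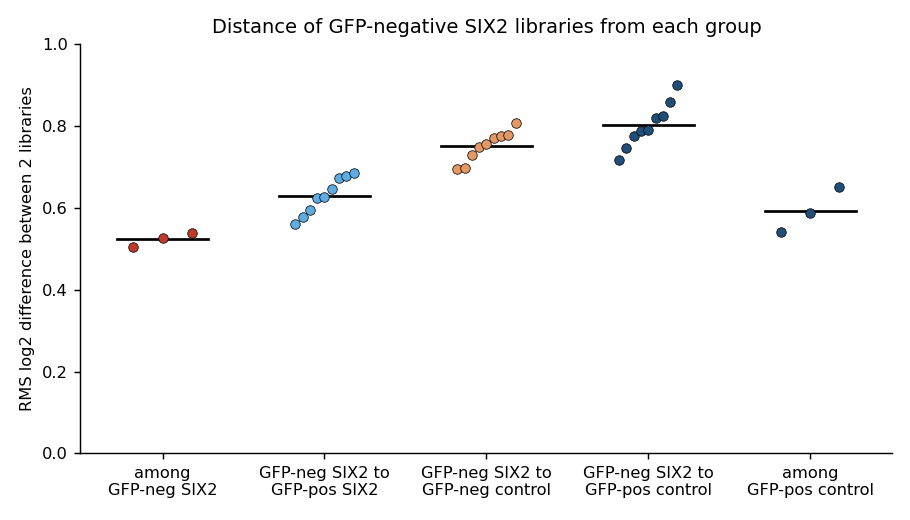
Root mean square log2 difference between pairs of libraries over the genes tested (y axis, log2 units), for pairs among GFP-negative SIX2 libraries, between them and each other group, and among GFP-positive control libraries. Points are pairs of libraries and lines are means, which are 0.523 among GFP-negative SIX2 libraries, 0.629 to GFP-positive SIX2, 0.750 to GFP-negative control and 0.802 to GFP-positive control libraries, and 0.593 among GFP-positive control libraries.

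Genes of the antiviral interferon response stood highest among the called genes with a mean of at least 50 normalized counts in either group. Interferons act through STAT factors to induce a large set of genes, among them sensors of viral RNA, nucleotide-synthesising enzymes that trigger RNA decay, and proteins that block viral translation or budding. Oasl1, an oligoadenylate synthetase-like protein (GRCm38 chromosome 5, 114923240 to 114937915, plus strand), had 922, 953 and 964 normalized counts in GFP-negative SIX2 libraries, against 13.8, 12.2 and 26.2 in GFP-positive control libraries. Every GFP-negative SIX2 library thus stood far above every GFP-positive control library, and the log2 difference was 5.77 with an SE of 0.26 (limma-trend adjusted p = 3.9e-08). Ifih1, which encodes the double-stranded RNA sensor MDA5 (chromosome 2, 62595798 to 62646255, minus strand), had 899, 939.9 and 874 normalized counts in GFP-negative SIX2 libraries and 67.3, 31.0 and 21.9 in GFP-positive control libraries, a log2 difference of 4.62 with an SE of 0.42 (limma-trend adjusted p = 4e-06). Isg15, a ubiquitin-like modifier (chromosome 4, 156199424 to 156200818, minus strand), reached 294, 303 and 250.2 normalized counts in GFP-negative SIX2 libraries, against 13.0, 12.7 and 17.7 in GFP-positive control libraries (log2 difference 4.20, SE 0.24, limma-trend adjusted p = 2.4e-07). The groups were as far apart for Ifit1, whose product binds viral RNA with an abnormal cap (chromosome 19, 34640871 to 34650009, plus strand). It had 585, 594 and 665 normalized counts in GFP-negative SIX2 libraries and 36.7, 27.1 and 34.6 in GFP-positive control libraries, a log2 difference of 4.20 with an SE of 0.28 (limma-trend adjusted p = 5.7e-07). Rsad2, which encodes the antiviral enzyme viperin, had 144, 132 and 161 normalized counts in GFP-negative SIX2 libraries, against 1.53, 15.5 and 18.6 in GFP-positive control libraries (log2 difference 3.97, SE 0.59, limma-trend adjusted p = 0.00021), and Oasl2 differed by 4.18 with an SE of 0.71 (limma-trend adjusted p = 0.00059). Rsad2 and Oasl2 passed the filter only through the GFP-negative SIX2 group, where they are high. Oasl1 shares exon sequence with Gm13822 on the other strand, and the protocol as described does not keep strand, so their reads cannot be told apart.

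The promoters of 3 of these genes are shown because each holds the interferon-stimulated response element, the motif bound by the STAT and IRF factors that interferon activates. The sequences are RefSeq windows of build GRCm38.p6, from 250 bases before to 50 bases after the annotated start, written 5′ to 3′ on the gene's strand, with capitals on each match to GAAA, any 2 bases and GAAA on either strand, overlapping matches merged. The windows are chr4:156200769-156201068, minus strand (Isg15), chr19:34640639-34640938, plus strand (Ifit1) and chr2:62646206-62646505, minus strand (Ifih1).
Isg15: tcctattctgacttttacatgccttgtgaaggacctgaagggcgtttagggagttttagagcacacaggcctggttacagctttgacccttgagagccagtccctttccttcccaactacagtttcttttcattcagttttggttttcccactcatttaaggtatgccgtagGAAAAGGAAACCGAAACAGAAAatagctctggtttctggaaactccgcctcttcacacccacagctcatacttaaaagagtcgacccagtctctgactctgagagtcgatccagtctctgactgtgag
Ifit1: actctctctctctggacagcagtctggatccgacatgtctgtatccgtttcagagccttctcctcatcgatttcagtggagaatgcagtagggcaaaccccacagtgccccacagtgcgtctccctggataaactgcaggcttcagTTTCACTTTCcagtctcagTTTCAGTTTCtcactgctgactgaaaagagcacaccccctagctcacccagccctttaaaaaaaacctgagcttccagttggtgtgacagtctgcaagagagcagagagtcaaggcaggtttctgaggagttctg
Ifih1: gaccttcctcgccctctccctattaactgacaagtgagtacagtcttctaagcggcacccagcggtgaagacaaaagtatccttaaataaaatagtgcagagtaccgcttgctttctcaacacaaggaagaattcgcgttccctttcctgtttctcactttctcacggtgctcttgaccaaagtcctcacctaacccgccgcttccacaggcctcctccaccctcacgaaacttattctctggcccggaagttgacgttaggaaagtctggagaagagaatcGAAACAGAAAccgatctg
Isg15 held 3 overlapping matches, Ifit1 2 on the opposite strand and Ifih1 1, which lies after the start. Of the tested interferon response genes, 28 had a promoter window, and 15 of these held the motif (53.6%). Over all 27025 genes with a window the share was 3.99%. The Oasl1 window held no match to these letters.

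Of 42 interferon response genes in the table, 34 passed the filter, and 25 of these were called higher and 1 lower, Stat2. Over all genes tested 16.2% were higher and 15.8% lower. The median log2 difference of the 34 was 1.89, beside 0.00 over all genes tested. The 21 that passed through both groups are given on their own, with 14 higher, 1 lower and a median of 0.89. The pathway's transcription factors had smaller differences than the genes above. Irf7 had 188, 204 and 183 normalized counts in GFP-negative SIX2 libraries and 75.0, 91.9 and 71.7 in GFP-positive control libraries, with a log2 difference of 1.27, and Irf9 differed by 0.78. Stat2 was the exception in direction, at 387, 327 and 298 normalized counts in GFP-negative SIX2 libraries, against 532, 440.0 and 387 in GFP-positive control libraries (log2 difference −0.42), but the list had no lower gene under 8 of the other settings tried, among them those without GFP-positive control library 1 or 2. The 8 below the filter include Mx2, Oas1a, Oas2 and Oas3, well-known interferon targets.

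Some of the interferon genes were also higher in GFP-negative than in GFP-positive cells with the control plasmid, 11 of the 34 tested, against 2.70% of all genes tested. That comparison's calls depend on single libraries, as given above. GFP-negative control libraries had 266, 297 and 199.8 normalized counts of Ifit1, and GFP-positive SIX2 libraries had 10.7, 25.3 and 22.8. Between GFP-negative control and GFP-positive control libraries it differed by 2.91 on the log2 scale (limma-trend adjusted p = 0.00032), and between GFP-negative SIX2 and GFP-negative control libraries by 1.29 (adjusted p = 0.0039). For Oasl1 these differences were 4.90 and 0.86, and for Isg15 3.48 and 0.72, so that the greater part of each lay between the sorted populations under the control plasmid. Ddx60, an antiviral helicase that is on no list, was also high in both GFP-negative groups. It had 157, 216 and 198 normalized counts in GFP-negative SIX2 libraries and 144, 187 and 126 in GFP-negative control libraries, against 15.3, 21.6 and 17.7 in GFP-positive control libraries. Its log2 difference from the GFP-positive control group was 3.32 with an SE of 0.30 (limma-trend adjusted p = 3.9e-06), while from the GFP-negative control group it was 0.33 (adjusted p = 0.45). Of the 34 interferon genes tested, 21 passed the filter through both compared groups. Others passed only through GFP-negative SIX2 libraries, where they are high, which favours each count of higher genes in this paragraph. Of the 34, 13 were called higher between GFP-negative SIX2 and GFP-negative control libraries, against 14.3% of all genes tested. Between GFP-negative SIX2 and GFP-positive SIX2 libraries 10 were called higher. The last comparison had only 28 calls in all, 26 of them higher in GFP-negative SIX2 libraries (0.187% of genes tested), and the count rests on single libraries, with 13 to 77 calls as each was left out, most without GFP-negative SIX2 library 1. The balance turned round there, to 30 higher and 47 lower, and under DESeq2, with 103 higher and 187 lower. These comparisons share libraries, and the sorted population and anything else that differed between the GFP-negative and GFP-positive cultures cannot be told apart.

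**Figure D2:**
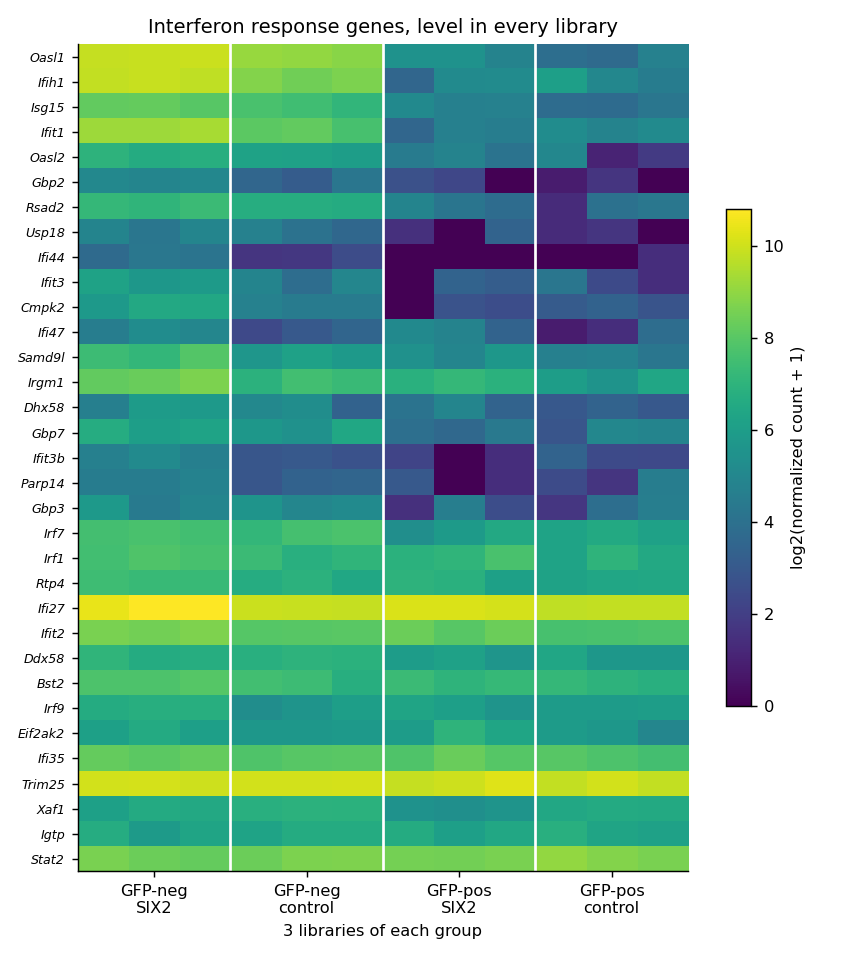
Level of 33 of the 34 tested interferon response genes (rows, sorted by their difference) in the 12 libraries (columns, 3 a group), as log2(normalized count + 1) in colour. Oasl1, Ifih1, Isg15 and Ifit1 are brightest in the 3 GFP-negative SIX2 libraries, intermediate in GFP-negative control libraries and dark in both GFP-positive groups.

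The chemokine genes Cxcl10 and Ccl5 and some antigen presentation genes were also higher. Cxcl10, a chemokine that attracts T cells, had 183, 183 and 212 normalized counts in GFP-negative SIX2 libraries and 3.06, 13.3 and 16.0 in GFP-positive control libraries (log2 difference 4.28, SE 0.46, limma-trend adjusted p = 1.4e-05). Its exons overlap Art3 on the other strand. Ccl5, another T cell chemokine, had 116, 104 and 108 normalized counts in GFP-negative SIX2 libraries, against 1.53, 3.32 and 2.53 in GFP-positive control libraries, where it rested on 2 to 6 reads a library (log2 difference 5.03, SE 0.36, limma-trend adjusted p = 9.1e-07). Tgtp2, an interferon-induced GTPase, had 47.8, 60.6 and 57.7 normalized counts in GFP-negative SIX2 libraries and no read in any GFP-positive library, which makes it at least 21.9-fold higher against a floor of 3 reads in the shallowest GFP-positive control library (2.53 normalized counts). It shares 90.6% of its 50-base stretches with Tgtp1, so the reads may belong to either copy. Cxcl10, Ccl5 and Tgtp2 passed the filter only through the GFP-negative SIX2 group, where they are high. GFP-negative control libraries had 85.7, 61.8 and 62.8 normalized counts of Ccl5. From these GFP-negative SIX2 libraries differed by 0.65 (limma-trend adjusted p = 0.20), and for Cxcl10 by 1.48 (adjusted p = 0.027).

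Of 16 tested genes of class I antigen presentation, which displays peptides of the cell's own proteins, 9 were higher, with a median log2 difference of 0.30. Each list count of this paragraph stands beside 16.2% higher and 15.8% lower of all genes tested. H2-D1, a class I heavy chain, had 2239, 2371 and 2361 normalized counts in GFP-negative SIX2 libraries, against 1091, 1049 and 1040.2 in GFP-positive control libraries (log2 difference 1.13, SE 0.08, limma-trend adjusted p = 8.8e-07). The other classical heavy chain H2-K1 differed by 0.50 (adjusted p = 0.00013), and the peptide transporter subunit Tap1 by 2.77 with an SE of 0.45 (limma-trend adjusted p = 0.00045), from 8 to 142 reads a library, passing the filter through the GFP-negative SIX2 group alone. Of the 14 that passed the filter through both groups, 7 were higher. H2-D1 shares 14.3% of its 50-base stretches with other genes, most with H2-Q1, and H2-K1 8.11%, most with H2-D1. Tap1 overlaps Psmb9 on the other strand, so the counts of these genes are less certain. The other comparisons differed between members. H2-K1 differed by 0.57 between the control groups (limma-trend adjusted p = 0.0014) and by −0.07 from GFP-negative control libraries (adjusted p = 0.50). For H2-D1 these differences were 0.61 and 0.52, each called. Tap1 differed by 0.34 from GFP-positive SIX2 libraries (limma-trend adjusted p = 0.79). Of 14 tested inflammatory and NF-kB genes 7 were higher and 3 lower, with a median of 0.68, and of the 10 that passed through both groups 3 and 3, so the direction was mixed. Csf1, the growth factor of macrophages, had 3779, 3884 and 3641 normalized counts in GFP-negative SIX2 libraries and 1621, 1582 and 1303 in GFP-positive control libraries (log2 difference 1.33, SE 0.11, limma-trend adjusted p = 2.1e-06). Vcam1, an adhesion molecule that also marks muscle stem cells, differed by 1.75 (adjusted p = 1.2e-06). Il1b, which encodes the cytokine interleukin-1 beta, was lower, at 158, 115 and 125 normalized counts in GFP-negative SIX2 libraries, against 378, 459 and 436 in GFP-positive control libraries (log2 difference −1.68, SE 0.18, limma-trend adjusted p = 1.4e-05). Csf1, Vcam1 and Il1b differed by plasmid label, with log2 differences of 1.17, 1.41 and −1.52 from GFP-negative control libraries, each called, and of 0.17, 0.35 and −0.16 between the control groups, none called.

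Cell cycle genes were higher in GFP-negative SIX2 libraries almost without exception. All 32 G2 and mitosis genes listed were tested and all 32 were called higher, with a median log2 difference of 1.37. Of 34 S phase genes 32 were higher and 1 lower, with a median of 1.08. The shares over all genes tested were 16.2% higher and 15.8% lower. Cdc20, which activates the anaphase-promoting complex (GRCm38 chromosome 4, 118432901 to 118437352, minus strand), had 3351, 3704 and 3577 normalized counts in GFP-negative SIX2 libraries and 1326, 1350.5 and 1260.5 in GFP-positive control libraries (log2 difference 1.43, SE 0.09, limma-trend adjusted p = 4.4e-07). Ccnb1, the cyclin of mitotic entry, had 3992, 4485 and 4156 normalized counts in GFP-negative SIX2 libraries, against 1535, 1519 and 1294 in GFP-positive control libraries (log2 difference 1.54, SE 0.10, limma-trend adjusted p = 5.1e-07). In both genes the lowest GFP-negative SIX2 library exceeded the highest GFP-positive control library by a wide margin. Ccna2, the cyclin of S phase and G2, differed by 1.34 with an SE of 0.08 (limma-trend adjusted p = 3.2e-07), and Prc1, which bundles microtubules of the spindle midzone (chromosome 7, 80294450 to 80316259, plus strand), by 1.43 with an SE of 0.10 (limma-trend adjusted p = 6e-07). Ccnb1 shares 42.1% of its 50-base stretches with the pseudogene Ccnb1-ps, and Cdc20 shares 11.4% with Gm7856 and overlaps Elovl1 on the other strand, so their counts are less certain than those of Ccna2 and Prc1, although both of these overlap an opposite-strand neighbour.

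The promoters of Cdc20 and Prc1 are shown because they hold the CHR (TTTGAA), the element through which the MuvB complexes hold mitotic genes off in quiescent cells. The windows, RefSeq build GRCm38.p6 as above with capitals on TTTGAA, are chr4:118437294-118437593, minus strand (Cdc20) and chr7:80294201-80294500, plus strand (Prc1).
Cdc20: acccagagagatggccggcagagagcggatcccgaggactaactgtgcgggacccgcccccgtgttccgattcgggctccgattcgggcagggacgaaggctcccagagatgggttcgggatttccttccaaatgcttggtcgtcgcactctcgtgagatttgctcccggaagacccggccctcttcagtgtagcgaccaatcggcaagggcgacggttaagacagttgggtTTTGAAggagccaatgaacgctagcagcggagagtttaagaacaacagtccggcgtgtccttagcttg
Prc1: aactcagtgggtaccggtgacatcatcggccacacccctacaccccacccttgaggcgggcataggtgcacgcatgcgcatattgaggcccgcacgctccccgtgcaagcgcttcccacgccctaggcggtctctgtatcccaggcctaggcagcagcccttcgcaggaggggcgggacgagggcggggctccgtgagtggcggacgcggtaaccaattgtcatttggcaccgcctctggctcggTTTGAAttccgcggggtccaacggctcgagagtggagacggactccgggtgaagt
The match began at position −18 from the annotated start in Cdc20 and at −5 in Prc1. TTTGAA was found on either strand in 19 of the 26 G2 and mitosis genes with a window (73.1%), and in 20.2% of all genes with one. CCAAT was found in 20 of the 26 (76.9%), against 41.1% of all genes. The E2F letters TTTCCCGC or TTTGGCGC were in 10 of 26 S phase windows (38.5%) and in 1.80% of all genes.

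Among S phase genes, Cdc6, which licenses replication origins, had 644, 703 and 785 normalized counts in GFP-negative SIX2 libraries, against 208.8, 227.5 and 199.95 in GFP-positive control libraries (log2 difference 1.74, SE 0.13, limma-trend adjusted p = 1.1e-06). Ccne1, the cyclin of S phase entry, differed by 1.40 with an SE of 0.11 (limma-trend adjusted p = 1.2e-06), the replicative helicase subunit Mcm3 by 1.30 and the clamp loader subunit Rfc5 by 1.16. The gene lower in the list was Rrm1, a ribonucleotide reductase subunit, by −0.17, a call lost when any single GFP-positive control library was left out, while the other subunit gene Rrm2 was higher by 1.14. Most of these genes also differed between plasmid labels among GFP-negative cells. Set against GFP-negative control libraries, GFP-negative SIX2 libraries had all 32 G2 and mitosis genes higher, and 30 S phase genes. Between GFP-negative control and GFP-positive control libraries 2 and 9 were higher, against a background of 2.70% of genes tested called higher. Against GFP-positive SIX2 libraries limma-trend and edgeR called none, DESeq2 called 1 G2 and mitosis gene and 2 S phase genes, and 11 and 9 had an unadjusted limma-trend p under 0.05. Cdc20 itself had 3224, 3100.2 and 2623 normalized counts in GFP-positive SIX2 libraries, and GFP-negative control libraries had 1793, 1567 and 1461. Of 25 p53 targets and CDK inhibitors 10 were higher and 2 lower, with a median of 0.28. Over all genes tested 16.2% were higher and 15.8% lower. Ccng1, a p53 target, had 15880.3, 16004 and 15397 normalized counts in GFP-negative SIX2 libraries and 10091, 10345 and 9695 in GFP-positive control libraries (log2 difference 0.65, SE 0.07, limma-trend adjusted p = 1.4e-05), Trp53 itself differed by 0.56, and the p53 target Zmat3 by 0.61. The CDK inhibitor gene Cdkn1a, which rises as myoblasts differentiate, was lower, at 38166, 38922 and 37363 normalized counts in GFP-negative SIX2 libraries, against 53248, 47154 and 45112 in GFP-positive control libraries (−0.34 on the log2 scale, called).

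Genes of the contractile apparatus were lower in GFP-negative SIX2 libraries. All 49 contractile and differentiation genes were tested and passed the filter through both groups. Of these, 40 were lower and 1 higher, with a median log2 difference of −0.61. Over all genes tested 15.8% were lower and 16.2% higher. Mymx, which encodes the small fusion protein myomixer, had 2194, 2193 and 2476 normalized counts in GFP-negative SIX2 libraries, against 4949.9, 4663 and 4258 in GFP-positive control libraries (log2 difference −1.01, SE 0.07, limma-trend adjusted p = 9.1e-07). Tnnt1, the slow skeletal troponin T, had 23353, 22554 and 23562 normalized counts in GFP-negative SIX2 libraries and 48894, 41723 and 43153 in GFP-positive control libraries (log2 difference −0.94, SE 0.06, limma-trend adjusted p = 5.4e-07). The groups did not overlap in either gene. Lmod3, which nucleates actin filaments of the sarcomere, differed by −0.96 with an SE of 0.07 (limma-trend adjusted p = 1.1e-06), and Klhl41, which stabilises nebulin, by −0.83 with an SE of 0.06 (limma-trend adjusted p = 5.8e-07). Acta1, skeletal actin, had 459717, 476433 and 444158 normalized counts in GFP-negative SIX2 libraries, against 636520.0, 622288 and 646216 in GFP-positive control libraries (log2 difference −0.47). The gene that went against the rest was Myoz1, a Z-disc protein of fast fibres, higher by 0.87, and 8 members were not called, among them titin (Ttn, −0.27) and nebulin (Neb, −0.13). Of the 49 genes, 38 were lower and 1 higher against GFP-negative control libraries, and 9 were lower between GFP-negative control and GFP-positive control libraries, where 1.02% of genes tested were lower. Between GFP-negative SIX2 and GFP-positive SIX2 libraries limma-trend and edgeR called none, while DESeq2 called 13 and 32 had an unadjusted limma-trend p under 0.05.

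The myogenic regulators and stem cell genes moved both ways. Of 31 tested, 8 were higher and 7 lower, Pax3 among the lower, with a median log2 difference of −0.03. Over all genes tested 16.2% were higher and 15.8% lower. Myf5, the earliest commitment factor (GRCm38 chromosome 10, 107482908 to 107486134, minus strand), had 3472, 3997 and 4657 normalized counts in GFP-negative SIX2 libraries, against 1684, 1843 and 1735 in GFP-positive control libraries (log2 difference 1.19, SE 0.11, limma-trend adjusted p = 5.7e-06). Pax7, the stem cell factor, was higher with 161, 161 and 164 normalized counts in GFP-negative SIX2 libraries and 109, 100.2 and 85.2 in GFP-positive control libraries (log2 difference 0.73, SE 0.20, limma-trend adjusted p = 0.015), a call lost under quantile scaling and without GFP-positive control library 3. These groups did not overlap in Myf5 or Pax7. Heyl, a Notch target expressed in muscle stem cells, differed by 1.36 and Sdc4, a stem cell surface proteoglycan, by 0.95 (adjusted p = 1.6e-06). Myod1 was close to equal, at 16061, 15524 and 15276 normalized counts in GFP-negative SIX2 libraries and 16740.0, 17668 and 16969 in GFP-positive control libraries (log2 difference −0.13, SE 0.07, limma-trend adjusted p = 0.15). Myog, the differentiation factor, was lower at 73271, 77241 and 70194 normalized counts in GFP-negative SIX2 libraries, against 94515, 93611 and 89772 in GFP-positive control libraries (log2 difference −0.33, SE 0.06, limma-trend adjusted p = 0.0011), though not under quantile scaling, where the call was lost. Mef2c, the partner of the myogenic factors at contractile genes, differed by −0.48 with an SE of 0.05 (limma-trend adjusted p = 1.8e-05). Myf5 differed from GFP-negative control libraries, by 1.32 (adjusted p = 6.8e-06), and not detectably between the control groups, by −0.12 (adjusted p = 0.59).

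Matrix genes were mostly higher in GFP-negative SIX2 libraries. Of 41 tested genes of matrix and remodelling, 26 were higher and 3 lower (Loxl1, Timp2 and Sparc), with a median log2 difference of 1.12. Over all genes tested 16.2% were higher and 15.8% lower. Of the 41, 38 passed the filter through both groups. Postn, the matricellular protein periostin (GRCm38 chromosome 3, 54361109 to 54391037, plus strand), had 1019.6, 985 and 1148 normalized counts in GFP-negative SIX2 libraries, against 158, 154 and 119.8 in GFP-positive control libraries (log2 difference 2.87, SE 0.15, limma-trend adjusted p = 1.4e-07). Thbs1 and Thbs2 encode thrombospondins, which bind matrix proteins and growth factors. Thbs1 had 11416, 11343 and 10662 normalized counts in GFP-negative SIX2 libraries and 4447, 4399 and 4056 in GFP-positive control libraries (log2 difference 1.37, SE 0.09, limma-trend adjusted p = 3.8e-07), and Thbs2 differed by 2.60 with an SE of 0.20 (limma-trend adjusted p = 1.2e-06). Fbn1, the microfibril protein fibrillin-1, had 749.7, 705 and 699 normalized counts in GFP-negative SIX2 libraries, against 143, 194 and 194 in GFP-positive control libraries (log2 difference 2.03, SE 0.18, limma-trend adjusted p = 2.8e-06). The groups stayed apart in each of these genes. The fibrillar collagen genes Col1a1 and Col3a1 differed by 2.70 and 1.19, each called, while the basement membrane collagen genes Col4a1 and Col4a2 were not called (0.30 and 0.28). GFP-positive SIX2 libraries had 793, 883 and 679 normalized counts of Postn. GFP-negative control libraries had 278, 209 and 208, and differed from GFP-positive control libraries by 0.68 on the log2 scale (limma-trend adjusted p = 0.03). Over the list, 21 genes were higher and 2 lower against GFP-negative control libraries, beside 14.3% and 15.1% of all genes tested. Between the control groups 8 were higher, beside 2.70% of all genes tested. Among fibro-adipogenic markers, the genes of the matrix-producing cells of muscle, 4 of 8 in the table passed the filter and only Ly6a was called, higher, having passed through the GFP-negative SIX2 group alone, while Dcn, Dpp4, Pi16 and Mfap5 stayed below it. The summed level of that list was 3181 to 3528 normalized counts in GFP-negative SIX2 libraries and 2723 to 3250 in GFP-positive control libraries, most of it Gsn, and its part in the matrix result was not tested.

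**Figure D3:**
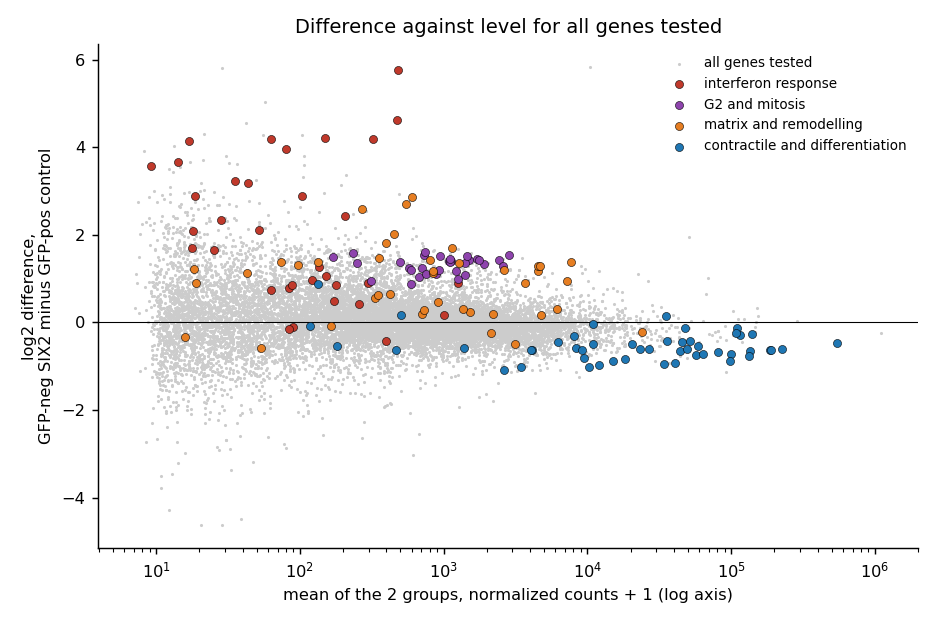
Log2 difference, GFP-negative SIX2 minus GFP-positive control (y axis), against the mean normalized count of the 2 groups (x axis, log scale), for the 13931 genes tested in grey and 4 lists in colour. Interferon, mitosis and matrix genes lie mostly above 0, and contractile genes lie below 0 at the highest levels.

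Genes of the caveolar coat, which forms the flask-shaped pits of the plasma membrane, went both ways. Of 11 genes, all tested and all passing through both groups, 5 were higher and 5 lower, with a median of 0.07. The shares over all genes tested were 16.2% higher and 15.8% lower. Cavin1 was not among the 5 higher. Cav1 had 2061, 2282 and 2653 normalized counts in GFP-negative SIX2 libraries, against 866, 769 and 703 in GFP-positive control libraries (log2 difference 1.58, SE 0.13, limma-trend adjusted p = 2e-06), and Cavin3 differed by 1.07 with an SE of 0.11 (limma-trend adjusted p = 1.4e-05), alongside Cav2, Cavin2 and Ehd2. The muscle members were lower, with Cavin4 at 19196, 18611 and 17128 normalized counts in GFP-negative SIX2 libraries and 28834, 27074 and 28732 in GFP-positive control libraries (log2 difference −0.62, SE 0.06, limma-trend adjusted p = 7.2e-06) and Cav3 differing by −0.31. The membrane-bending Pacsin genes were lower too, most of all Pacsin1, at 94.2, 80.4 and 52.3 normalized counts in GFP-negative SIX2 libraries, against 488, 466 and 434 in GFP-positive control libraries (log2 difference −2.64, SE 0.25, limma-trend adjusted p = 4.9e-06).

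Among patterning genes, which record the position of cells along body and limb, members moved both ways. Of 25 tested Hox genes 5 were higher and 8 lower, with a median of −0.55, beside 16.2% higher and 15.8% lower of all genes tested. The lower genes included Hoxa7, Hoxb5, Hoxb6, Hoxc4, Hoxc5, Hoxc6 and Hoxc8, and the 5 higher were Hoxa9, Hoxa10, Hoxa11, Hoxc10 and Hoxc11. Of the 20 that passed the filter through both groups, 4 were higher and 8 lower, Hoxc11 having passed through the GFP-negative SIX2 group alone. The higher genes carry the later numbers of their clusters, which are used toward the posterior and the distal limb. Hoxc9 and Hoxd9 were not called (−0.29 and −0.39), and the order along the clusters was not tested. Hoxa11 (GRCm38 chromosome 6, 52242106 to 52245810, minus strand) had 123, 160.1 and 171 normalized counts in GFP-negative SIX2 libraries, against 19.1, 49.3 and 34.6 in GFP-positive control libraries (log2 difference 2.19, SE 0.36, limma-trend adjusted p = 0.00043), although its reads cannot be told apart from those of Hoxa11os on the other strand. Hoxc10 had 191, 238 and 198 normalized counts in GFP-negative SIX2 libraries and 88.0, 63.6 and 114 in GFP-positive control libraries (log2 difference 1.27, SE 0.21, limma-trend adjusted p = 0.00055). Its exons overlap those of Hoxc5, called lower, on the same strand, and 6.40% of its 50-base stretches are shared with that gene. Hoxa9 differed by 0.82 with an SE of 0.15 (limma-trend adjusted p = 0.00081). Hoxb6 was lower, at 111, 90.9 and 74.6 normalized counts in GFP-negative SIX2 libraries, against 197, 173 and 179.7 in GFP-positive control libraries (log2 difference −1.002, SE 0.18, limma-trend adjusted p = 0.00089). Against GFP-negative control libraries 5 Hox genes were higher and 10 lower, beside 14.3% and 15.1% of all genes tested. Between the control groups limma-trend and edgeR called none, DESeq2 called 2, and 3 had an unadjusted limma-trend p under 0.05.

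Of 26 other patterning factors 5 were higher and 9 lower, with a median of −0.03, beside 16.2% higher and 15.8% lower of all genes tested. The 5 higher became 1 without GFP-positive control library 1, and 2 without GFP-negative SIX2 library 2 or under quantile scaling. Alx4, a homeobox factor of limb and face (GRCm38 chromosome 2, 93642384 to 93681339, plus strand), had 106, 70.5 and 63.2 normalized counts in GFP-negative SIX2 libraries, against 0.765, 3.87 and 3.37 in GFP-positive control libraries, where it had 1 to 7 reads a library (log2 difference 4.56, SE 0.69, limma-trend adjusted p = 0.00023). It passed the filter only through the GFP-negative SIX2 group, where it is high. GFP-negative control libraries had 0, 8.72 and 3.75, and GFP-positive SIX2 libraries 127, 85.7 and 119, so that it was near 0 in every control library and present in every SIX2 library. Shox2, a homeobox factor of the proximal limb, went the other way with 16.4, 12.5 and 18.6 normalized counts in GFP-negative SIX2 libraries and 105, 126 and 76.8 in GFP-positive control libraries (log2 difference −2.61, SE 0.35, limma-trend adjusted p = 7.9e-05), its exons overlapping Rsrc1 on the other strand. Emx2, a homeobox factor of the limb girdle, and Tbx3, a T-box factor of the limb margin, differed by −1.61 with an SE of 0.18 (limma-trend adjusted p = 1.9e-05) and −1.44 with an SE of 0.13 (limma-trend adjusted p = 4.6e-06), and both overlap an antisense gene. Tbx3 also differed between the control groups, by −0.62 on the log2 scale (limma-trend adjusted p = 0.025), with lower values in GFP-negative control libraries.

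**Figure D4:**
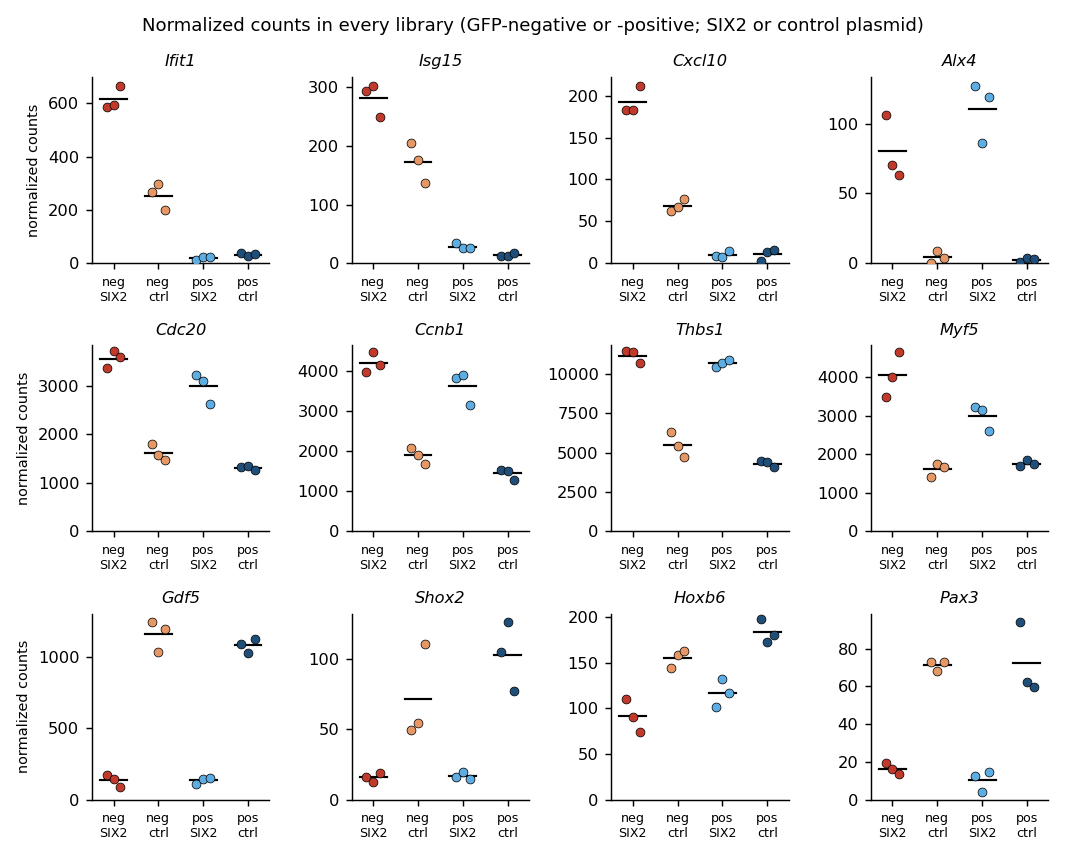
Normalized counts (y axis, from 0) of 12 genes in each library, with GFP-negative SIX2, GFP-negative control, GFP-positive SIX2 and GFP-positive control libraries from left to right; points are libraries and lines are means. Ifit1, Isg15 and Cxcl10 are high in both GFP-negative groups, while the other 9 genes separate the SIX2 libraries from the control libraries.

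Several signalling genes were far apart between the groups. Gdf5, a BMP-family ligand of joints and of denervated muscle (GRCm38 chromosome 2, 155941023 to 155945367, minus strand), had 173, 142 and 91.4 normalized counts in GFP-negative SIX2 libraries, against 1092, 1026 and 1126 in GFP-positive control libraries (log2 difference −3.03, SE 0.20, limma-trend adjusted p = 4.5e-07). GFP-positive SIX2 libraries had 111, 142 and 155 and GFP-negative control libraries 1244, 1032 and 1191, so both SIX2 groups lay far below both control groups. Gm15557 lies on its other strand. Of 27 tested BMP and TGF-beta genes 10 were higher and 7 lower, with a median of 0.00, beside 16.2% higher and 15.8% lower of all genes tested. The ligand Tgfb2 was lower, at 1416, 1277 and 1533 normalized counts in GFP-negative SIX2 libraries and 2808, 2859.8 and 2453 in GFP-positive control libraries (log2 difference −0.94, SE 0.09, limma-trend adjusted p = 5.4e-06), and the BMP antagonist Chrd by −0.97 with an SE of 0.11 (limma-trend adjusted p = 1.8e-05), while the secreted follistatin-like gene Fstl1 was higher at 2823, 2919 and 3141 normalized counts in GFP-negative SIX2 libraries, against 1365, 1507 and 1138 in GFP-positive control libraries (log2 difference 1.16, SE 0.11, limma-trend adjusted p = 5.6e-06). The activin subunit genes Inhba and Inhbb and the BMP antagonist gene Grem1 were also higher, by 1.62, 1.90 and 1.49.

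In the Notch pathway, which keeps muscle stem cells from differentiating, 5 of 16 tested genes were higher and 4 lower, with a median of 0.02. The shares over all genes tested were 16.2% higher and 15.8% lower. The ligand genes Jag2 and Dll1, the receptor-modifying gene Lfng and Hes6 were lower, with Lfng at 689, 538 and 379 normalized counts in GFP-negative SIX2 libraries and 1957, 1547 and 2524 in GFP-positive control libraries (log2 difference −1.92, SE 0.19, limma-trend adjusted p = 8.4e-06). The receptor genes Notch1 and Notch3, the ligand gene Jag1, the coactivator gene Maml2 and the target gene Heyl were higher. Heyl had 489, 582 and 636 normalized counts in GFP-negative SIX2 libraries, against 209, 221 and 228 in GFP-positive control libraries (log2 difference 1.36, SE 0.18, limma-trend adjusted p = 7.3e-05), and Maml2 differed by 1.02 with an SE of 0.14 (limma-trend adjusted p = 8.8e-05), Jag2 by −0.70 with an SE of 0.11 (limma-trend adjusted p = 0.00029). In the Wnt pathway 4 of 25 were higher and 7 lower, with a median of 0.04, and of the 19 that passed through both groups 3 and 6, beside 16.2% higher and 15.8% lower of all genes tested. The 7 lower became 4 without GFP-positive control library 2 or 3. The ligand gene Wnt9a had 2478, 2093 and 1798 normalized counts in GFP-negative SIX2 libraries and 3626, 4222 and 4712 in GFP-positive control libraries (log2 difference −0.98, SE 0.13, limma-trend adjusted p = 5.8e-05). Wnt10a differed by −2.07, and the ligand gene Wnt5a and receptor gene Fzd4 went the other way, by 2.85 with an SE of 0.53 (limma-trend adjusted p = 0.0011) and 2.15 with an SE of 0.44 (limma-trend adjusted p = 0.0021). Wnt5a passed the filter only through the GFP-negative SIX2 group and rested on 3 to 30 reads a library in the GFP-positive control group, whose libraries also spread widely for Fzd4, at 121, 84.1 and 21.1 normalized counts against 295, 299.7 and 226 in GFP-negative SIX2 libraries.

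Of 25 genes of FGF, MET and MAPK feedback 10 were higher and 2 lower, with a median of 0.51. Each list count of this paragraph stands beside 16.2% higher and 15.8% lower of all genes tested. Fosl1, an AP-1 subunit, had 413, 481 and 427 normalized counts in GFP-negative SIX2 libraries, against 148, 166 and 158 in GFP-positive control libraries (log2 difference 1.48, SE 0.20, limma-trend adjusted p = 8.9e-05), and the growth regulator Myc differed by 0.87 with an SE of 0.16 (limma-trend adjusted p = 0.00083). The feedback inhibitor Spry4 was higher by 1.32 and the receptor gene Fgfr3 lower, by −0.73, each called. Hgf, the ligand of MET, rested on 35.0, 19.1 and 32.5 normalized counts in GFP-negative SIX2 libraries and 10.7, 0 and 0 in GFP-positive control libraries, and passed the filter through the GFP-negative SIX2 group alone. Of 30 tested axon guidance genes 10 were higher and 6 lower, with a median of 0.19, the 6 becoming 3 without GFP-negative SIX2 library 3. The semaphorin receptor gene Nrp1 had 559, 579 and 605 normalized counts in GFP-negative SIX2 libraries and 194, 182 and 184 in GFP-positive control libraries (log2 difference 1.63, SE 0.10, limma-trend adjusted p = 3.9e-07), while the semaphorin gene Sema3b was lower, by −1.23 with an SE of 0.13 (limma-trend adjusted p = 1.5e-05). The neurotrophin receptor gene Ngfr differed by −1.31 and the ephrin ligand gene Efnb2 by 1.90. Of 19 YAP targets and partners, which respond to matrix stiffness, 6 were higher and 4 lower, with a median of 0.17. Ccn2, a secreted matricellular protein, had 1250.2, 1231 and 1294 normalized counts in GFP-negative SIX2 libraries, against 548, 560.1 and 492 in GFP-positive control libraries (log2 difference 1.24, SE 0.12, limma-trend adjusted p = 7.5e-06), and Ccn4 and Nuak2 differed by 1.09 and 1.60.

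Of 30 genes of the amino acid and unfolded protein responses 17 were higher, with a median log2 difference of 0.36. Each list count of this paragraph stands beside 16.2% higher and 15.8% lower of all genes tested. Psat1 and Phgdh, enzymes of serine synthesis, and Shmt2, which feeds serine into mitochondrial one-carbon metabolism, differed by 0.61 with an SE of 0.06 (limma-trend adjusted p = 1e-05), 0.60 and 0.54. Psat1 had 5455, 5736 and 5616 normalized counts in GFP-negative SIX2 libraries and 3785, 3715 and 3481 in GFP-positive control libraries. Trib3, a target of ATF4, had 532, 572 and 502 normalized counts in GFP-negative SIX2 libraries, against 173, 254 and 256 in GFP-positive control libraries (log2 difference 1.25, SE 0.14, limma-trend adjusted p = 2.6e-05), whereas Atf4 itself was not called (0.04). Phgdh shares 63.1% of its 50-base stretches with Gm7901. Of 15 tested heat shock genes 2 were higher and 7 lower, with a median of −0.23. Cryab, the small heat shock protein of the Z-disc, had 24477, 25325 and 26470.1 normalized counts in GFP-negative SIX2 libraries and 52725, 45536 and 47048 in GFP-positive control libraries (log2 difference −0.93, SE 0.06, limma-trend adjusted p = 6.2e-07), although Hspb2 overlaps it on the other strand, and the co-chaperone gene Bag3 differed by −0.63.

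Of 25 glycolysis and hypoxia genes 2 were higher and 7 lower, with a median of 0.01. Over all genes tested 16.2% were higher and 15.8% lower, the shares to set beside each list count of this paragraph. The isoforms of phosphoglycerate mutase went apart. The muscle isoform Pgam2 had 18885, 19044 and 17969 normalized counts in GFP-negative SIX2 libraries, against 30609, 27915 and 29446 in GFP-positive control libraries (log2 difference −0.65, SE 0.05, limma-trend adjusted p = 2.3e-06), and the widely expressed isoform Pgam1 differed by 0.34 with an SE of 0.05 (limma-trend adjusted p = 0.00026). Pgam1 shares 41.5% of its 50-base stretches with Pgam1-ps2, so its count is less certain. Under quantile scaling the list of glycolysis and hypoxia genes had 7 higher and 4 lower, so its balance rests on the scaling. Gpi1 and Pfkm, at the top of glycolysis, differed by −0.56 and −0.54. Of 15 mitochondrially encoded genes 5 were lower, with a median of −0.26. mt-Nd5, a complex I subunit, had 36791, 34655 and 35346 normalized counts in GFP-negative SIX2 libraries and 56714, 58428 and 72585 in GFP-positive control libraries (log2 difference −0.81, SE 0.08, limma-trend adjusted p = 8.5e-06). Other members, such as mt-Rnr2 and mt-Co1, were not called. The 5 became 8 after removal of the GC trend, an alternative added after the data were seen. Of 25 cholesterol and fatty acid synthesis genes 8 were higher and 6 lower, with a median of −0.01, and with Dhcr7, the last enzyme of cholesterol synthesis, at −0.84 and the fatty acid elongase Elovl6 at 1.47. Of 21 tested genes of the IGF axis and imprinted genes 4 were higher and 6 lower, with a median of 0.14. The growth factor gene Igf2 had 19889, 18585 and 17102 normalized counts in GFP-negative SIX2 libraries and 31936, 23960.2 and 31218 in GFP-positive control libraries (log2 difference −0.64, SE 0.11, limma-trend adjusted p = 0.00054), with 75.9% of its 50-base stretches shared with Gm49394. The imprinted genes Ndn and Mest were higher by 1.02 and 0.82, and Zim1 was lower, by −1.14. Mest differed between the control groups by 0.87 (limma-trend adjusted p = 0.0026) and by −0.05 between GFP-negative SIX2 and GFP-negative control libraries (adjusted p = 0.79).

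**Figure D5:**
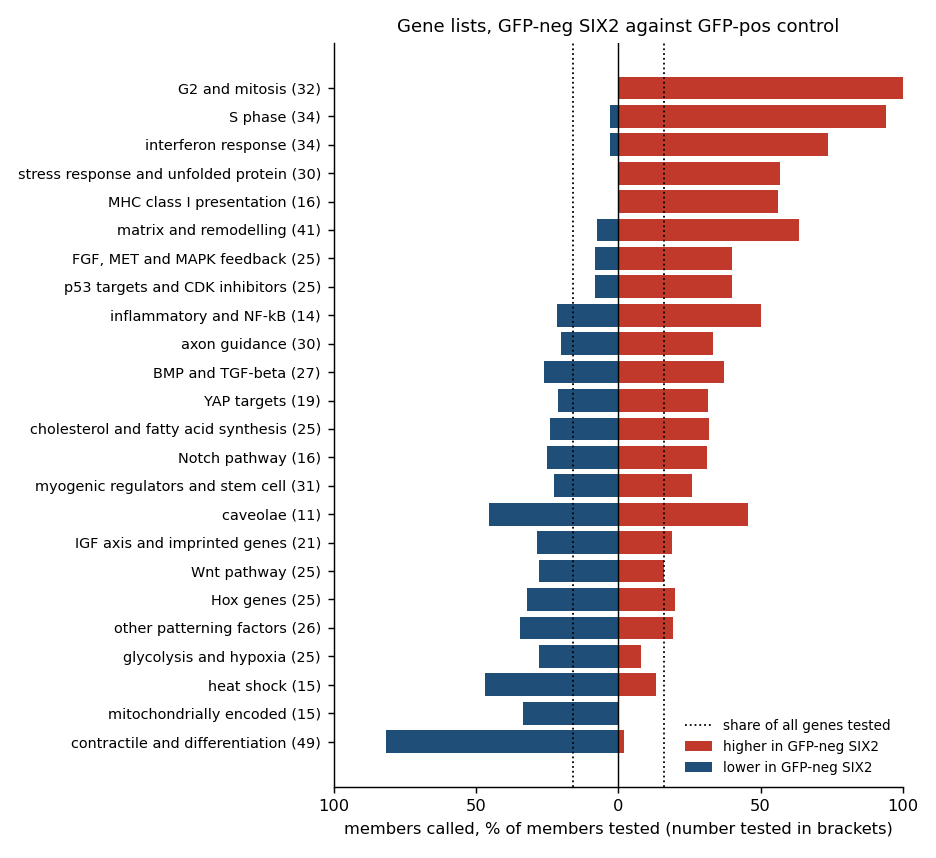
Share of tested members called higher (red, right) or lower (blue, left) in GFP-negative SIX2 libraries, in percent, for the 24 gene lists, with the number tested in brackets. Dotted lines mark the shares over all genes tested, 16.2% higher and 15.8% lower; G2 and mitosis reaches 32 of 32 higher and contractile genes 40 of 49 lower.

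Outside the lists, the largest differences were among genes of low to moderate level. Nr2e3, a nuclear receptor known from photoreceptors, had 0.714, 1.32 and 7.82 normalized counts in GFP-negative SIX2 libraries, against 68.1, 62.0 and 88.6 in GFP-positive control libraries (log2 difference −4.48, SE 0.58, limma-trend adjusted p = 6.3e-05), with 1 to 13 reads a library in GFP-negative SIX2. Clip4, a microtubule-binding protein, had 16.4, 5.27 and 6.01 normalized counts in GFP-negative SIX2 libraries and 70.4, 83.0 and 93.6 in GFP-positive control libraries (log2 difference −3.18, SE 0.46, limma-trend adjusted p = 0.00015). Nos1, the neuronal nitric oxide synthase that sits at the muscle membrane, had 39.3, 35.6 and 47.5 normalized counts in GFP-negative SIX2 libraries, against 218, 308 and 214 in GFP-positive control libraries (log2 difference −2.56, SE 0.19, limma-trend adjusted p = 1.1e-06). Cilp2, a secreted cartilage protein, had 222, 208 and 159 normalized counts in GFP-negative SIX2 libraries and 1131, 1253 and 1033 in GFP-positive control libraries (log2 difference −2.54, SE 0.13, limma-trend adjusted p = 1.4e-07). None of these 4 genes was called between the control groups, and each was called between GFP-negative SIX2 and GFP-negative control libraries. Further genes among the 12 lowest were Prr32 (−2.87), Tdrd1, a germ cell tudor protein (−2.78), the ligand gene Bmp8b (−2.60) and Myh13, a myosin of extraocular muscle (−2.29). Nr2e3, Clip4, Tdrd1, Bmp8b and Myh13 passed the filter only through the GFP-positive control group, where they are high. Among the 12 highest genes Ramp3, which modifies calcitonin-family receptors, differed by 4.27 with an SE of 0.80 (limma-trend adjusted p = 0.0011) and had 66.4, 38.8 and 55.3 normalized counts in GFP-negative control libraries, where it was called against GFP-positive control libraries as well (3.36, adjusted p = 0.037). Peli2, a ubiquitin ligase of innate immune signalling, differed by 3.81 with an SE of 0.89 (limma-trend adjusted p = 0.005) and had 0, 3.96 and 20.6 in GFP-negative control libraries. Ramp3 and Peli2 passed the filter only through the GFP-negative SIX2 group, where they are high.

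The genes with the largest excess in GFP-positive over GFP-negative control libraries, by the same filters, were Myhas, Fbxo16, mt-Atp8, H2ac18, Tmsb10, Lmbr1l, Nfia and Atp5k. They were chosen for high values in the GFP-positive control libraries, which also enter their differences from GFP-negative SIX2 libraries, so a lower value there is favoured by the choice, and the values are a description without a test. Nfia, a CTF/NF-I transcription factor, had 244, 291 and 251 normalized counts in GFP-negative SIX2 libraries and 256, 273 and 235 in GFP-positive control libraries, while GFP-negative control libraries had 156, 154 and 145. Tmsb10, which binds actin monomers, had 49665, 52934 and 68189 normalized counts in GFP-negative SIX2 libraries, against 169898, 109568 and 101445 in GFP-positive control libraries, where library 1 was the highest. It shares 43.5% of its 50-base stretches with Gm9844. Myhas, an antisense RNA of the myosin heavy chain cluster that overlaps Myh1, had 95.7, 90.2 and 115 normalized counts in GFP-negative SIX2 libraries and 393, 206 and 192 in GFP-positive control libraries. The log2 differences of GFP-negative SIX2 from GFP-positive control libraries were 0.04 for Nfia, −1.13 for Tmsb10, −1.31 for Myhas, −0.85 for Fbxo16, −0.70 for mt-Atp8 and −0.25 for Lmbr1l.

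The most equal genes of the comparison among those called against GFP-negative control libraries were Gtf2a1, Pfn1, Mrpl18, Chmp3, Mybpc1 and Mtch1. Mtch1, a mitochondrial outer membrane protein, had 868, 840.5 and 641 normalized counts in GFP-negative SIX2 libraries and 669, 772 and 898 in GFP-positive control libraries (log2 difference 0.00), against 1658, 1284 and 1101 in GFP-negative control libraries. Mybpc1, a slow myosin-binding protein, had 17513, 16054 and 14572 normalized counts in GFP-negative SIX2 libraries and 17321, 15607 and 15038 in GFP-positive control libraries, where the libraries overlap. The rule chose these genes for being equal, so no test bears on their likeness.

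The cells of both groups carried the markers of the myogenic lineage, with summed levels of the 8 marker genes at 144400 to 168090 normalized counts in GFP-negative SIX2 libraries and 214439 to 234742 in GFP-positive control libraries, most of it desmin. Endothelial markers summed to 21.7 to 62.6 normalized counts in GFP-negative SIX2 libraries and 101 to 138 in GFP-positive control libraries, and of 8 in the table only Vwf passed the filter, called lower, by −1.75. Haematopoietic markers summed to 81.7 to 107 in GFP-negative SIX2 libraries, against 119.8 to 130.1 in GFP-positive control libraries, with Adgre1, Lyz2 and Cd3e below the filter. Of the 4 tested, Csf1r was higher (2.35) and Cd79a lower (−1.58), each passing the filter only through the group where it is high. Smooth muscle and pericyte markers summed to 2372 to 3327 in GFP-negative SIX2 libraries and 3467 to 3837 in GFP-positive control libraries, with Cspg4 and Abcc9 lower and Pdgfrb and Notch3 higher. The sums of tenocyte and glial markers overlapped between the groups. In bulk RNA, fewer cells of a type and less RNA per cell cannot be told apart, and the part of these markers in the results was not tested. Mitochondrially encoded genes took 3.59% to 4.82% of reads over the 6 compared libraries.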

How the data were processed

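Full-length RNA-seq was made from 4 groups of 3 libraries of sorted mouse muscle stem cells. Per the submitters' processing notes, the tools were STAR 2.7.11a, RSEM 1.3.3 and DESeq2 1.42.0, with FastQC 0.12.1 and MultiQC 1.19, and the build was GRCm38. The authors deposited 1 table of counts divided by DESeq2 size factors, called normalized counts here, a signal with no length scaling, so levels are not compared between genes. The values gave whole reads in 100% of cells within a tolerance of 1e-04, and these recovered counts gave the depths and served edgeR 4.0.16 and DESeq2 as alternatives. No sample column was left unused.

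A gene was kept where 3 or more of the 6 compared libraries had a value of 10 or more. Log2(normalized count + 1) was fitted with limma 3.58.1 (limma-trend, R 4.3.3), over 4 group means of all 12 libraries without a replicate term, with Benjamini-Hochberg adjustment over all genes tested. Differences are on that scale, which understates changes of low genes. Data simulated for this comparison covered 13924 genes, but a change was given to only 200, each averaging above 50 counts. For these better-covered genes, 85% of 1.5-fold and 99% of 2-fold changes were recovered. Recovery at lower levels, where several named genes lie, was not tested. Members and lists were chosen with earlier results of these data known. Named genes were the 12 highest and 12 lowest called genes with a mean of at least 50 in either group, 4 per list by p, 8 largest by the control comparison and 6 nearest to equal, and other genes were named after their values were seen. A few genes that this rule names are not reported here. Positions are from GENCODE on GRCm38 and 99.8% of IDs matched. Alternatives covered pseudocount, filter, scaling, tool, a replicate block, weights and each library left out. Replicates of a group differed by far more than counting noise.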

Additional observations from a re-analysis of the deposited data

How the results depend on the processing

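The count of genes called between GFP-negative SIX2 and GFP-positive control libraries ranged from 3484, without GFP-negative SIX2 library 2, to 5203 with library weights, around 4457, with 4592 by edgeR and 4934 by DESeq2. Of 121 named genes called, 113 stayed called in every one of the 25 settings in which they were tested and none changed sign. Of the 121, 11 were too low for the filter on a mean of at least 50. Most of the 121 were chosen for a small p or a large difference in these same libraries, so the choice favoured their staying called. Against GFP-negative control libraries the 4098 calls became 6168 with library weights. Between GFP-negative control and GFP-positive control libraries the 518 calls became 340 with no filter on low values, 299 with the replicate block, 1579 with library weights and 1083 by DESeq2, and ran between 72 and 843 as single libraries were left out, lowest without GFP-negative control library 1 and highest without GFP-positive control library 3. Against GFP-positive SIX2 libraries the 28 calls, 26 higher and 2 lower, became 47 with library weights and 290 by DESeq2, of which 187 were lower, and 13 to 77 as single libraries were left out. The cause was not tested. Over genes with a mean of at least 50, distances from GFP-negative SIX2 libraries were 0.395 to GFP-positive SIX2, 0.557 to GFP-negative control and 0.614 to GFP-positive control libraries, in the same order, and 0.466 between GFP-negative control and GFP-positive control libraries.

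With the replicate block 4179 genes were called between GFP-negative SIX2 and GFP-positive control libraries. Samples with the same number deviated together with correlations of 0.200, 0.0126 and 0.169, and those with different numbers with −0.227 to 0.0631. Not every library correlated best with its own number. The main fit took the libraries as unpaired, although these values do not settle that. Precision is lowest in the shallow libraries and in genes of few reads.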
